A study of Mus musculus with 24 samples.

Results

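White adipose tissue (WAT) from mice on a corn-oil high-fat diet (HFD) was set against WAT from mice on a low-fat diet, across all measured genes. The arrays were chosen by their titles, which name WAT with the corn-oil HFD in 4 arrays and WAT with the control diet in 4 arrays, 8 of the 24 arrays of the study. All were Illumina mouse expression arrays of total RNA from male C57Bl/6J mice, with no transgene or deletion named for any group. Each diet group was represented by 4 mice that had been picked by body weight, plasma triglyceride and plasma cholesterol, so the spread between arrays is that of picked mice. The other arrays came from WAT of mice on an HFD with added EPA and DHA, the long-chain omega-3 fatty acids of fish oil (EPA/DHA HFD), and from brown adipose tissue (BAT) on the same 3 diets, with 4 arrays per group. The labels give no fat depot, age, diet composition or feeding time, and the text on RNA extraction speaks of skeletal muscle although every sample's tissue label is adipose. The levels of Adipoq, which encodes the fat cell hormone adiponectin, at 14.33, 13.99, 14.24 and 14.35 in the corn-oil HFD arrays, against 14.14, 14.35, 14.37 and 14.39 in the low-fat arrays, lay near the top of the scale in every array. The fat cell genes Lpl, at 14.60 ± 0.16 on the corn-oil HFD and 14.59 ± 0.07 on the low-fat diet, and Pparg, at 11.60 ± 0.23 and 11.76 ± 0.36 (SD, n = 4 each), were high too, while the probes of Fabp4 and Cd36, also fat cell markers, read near the floor on both diets. Of all 12 adipocyte markers tested 10 had negative differences, with a median of -0.11, Acvr1c fell and 11 did not pass. Their mean was 11.31 ± 0.07 on the corn-oil HFD and 11.42 ± 0.05 on the low-fat diet (SD).

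White fat stores triglyceride in its fat cells and secretes hormones, among them leptin and adiponectin. When it expands during high-fat feeding, fat cells enlarge, macrophages and other immune cells gather, and the collagen matrix around the cells is remodelled. Immune cells present peptides of proteins they have taken up on MHC class II molecules, while fat cells break down branched-chain amino acids in their mitochondria and make fatty acids and glycerol phosphate for storage.

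The corn-oil HFD changed 517 of 13349 genes in white fat (3.87% of the genes tested). Of these, 274 rose (2.05%) and 243 fell (1.82%) on the corn-oil HFD, at an adjusted p below 0.05 in limma. Counts of list members given below are to be read beside these shares. All levels are log2 expression and all differences are corn-oil HFD minus low-fat, with ± the standard error. The sources used here do not say if the log scale was variance-stabilised, so differences of dim genes can be understated. Array values are given in the order of replicates 1 to 4. The rises had a median size of 0.39, and 19 of them were over 1. The falls had a median size of 0.36, and 7 of them were over 1. The arrays of the diets did not overlap in 271 of the 274 genes that rose and in 240 of the 243 that fell, whereas 12.4% of all genes tested did not overlap. Genes called on these same arrays are bound to be mostly apart, so this is no further evidence. Over all genes tested the median difference was -0.002, and 6479 were above 0. Both the fit and each of the 8 fits that left out 1 array called the same 133 genes (0.996% of the genes tested), 78 higher and 55 lower.

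The genes that rose most were Tph2, Ubd and Rnase2a. Tph2, which encodes a tryptophan hydroxylase that makes the serotonin precursor, was at 10.01, 10.37, 10.45 and 11.13 in the corn-oil HFD arrays, against 7.68, 8.12, 8.11 and 7.28 in the low-fat arrays. No low-fat array came within 1 log2 unit of a corn-oil array, and the rise was 2.69 ± 0.33 (adjusted p = 0.00372). Ubd, which encodes a ubiquitin-like protein that inflammatory cytokines induce, was at 10.14, 10.55, 10.18 and 11.04 in the corn-oil HFD arrays, against 7.66, 8.01, 7.96 and 8.04 in the low-fat arrays. Its low-fat arrays lay close together, its corn-oil arrays were all far above them, and the rise was 2.56 ± 0.20 (adjusted p = 9.8e-04). Rnase2a, of the family of eosinophil-associated ribonucleases, was at 9.70, 9.26, 10.02 and 8.89 in the corn-oil HFD arrays, against 7.22, 7.66, 7.66 and 7.22 in the low-fat arrays. Low-fat replicates 1 and 4 were near the floor of the scale, which lies near 7, so the rise of 2.03 ± 0.26 (adjusted p = 0.00557) can be understated. Of the other 7 genes of the serotonin list, Maob, which breaks down monoamines, fell by 0.29 ± 0.06 (adjusted p = 0.0247) at its brighter probe, and 6 did not pass.

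Further genes rose in the fit and in each fit without 1 array. Stambpl1, a deubiquitinase gene, was at 8.42, 8.52, 8.78 and 8.47 in the corn-oil HFD arrays, against 7.58, 7.71, 7.78 and 7.53 in the low-fat arrays. The groups were far apart relative to their spread, and the rise of 0.90 ± 0.08 (adjusted p = 9.9e-04) was among those with the smallest adjusted p. Nup210, which encodes a membrane glycoprotein of the nuclear pore, rose by 1.14 ± 0.12 (adjusted p = 0.00183). Mylk, the kinase gene of myosin light chain and a marker of smooth muscle, rose by 1.17 ± 0.17 (adjusted p = 0.00879), at all 3 of its probes. The other 11 measured markers of pericytes and smooth muscle did not pass. H2ac22, a histone gene, rose by 0.87 ± 0.15, and the transcript C730029A08Rik rose by 1.09 ± 0.19. Other large rises rested on fewer of the fits without 1 array. Lipf, which encodes a lipase, was at 9.09 ± 0.24 on the corn-oil HFD and 7.75 ± 0.43 on the low-fat diet (SD, n = 4 each) and passed in 6 of the 8. Slc5a7, a choline transporter gene, was at 9.27, 9.05, 9.44 and 9.21 on the corn-oil HFD, against 7.49, 8.69, 8.07 and 7.37 on the low-fat diet, and passed in 2. Paqr9, a gene of the progestin and adiponectin receptor family, rose by 1.12 ± 0.24 and passed in 1.

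**Figure D1:**
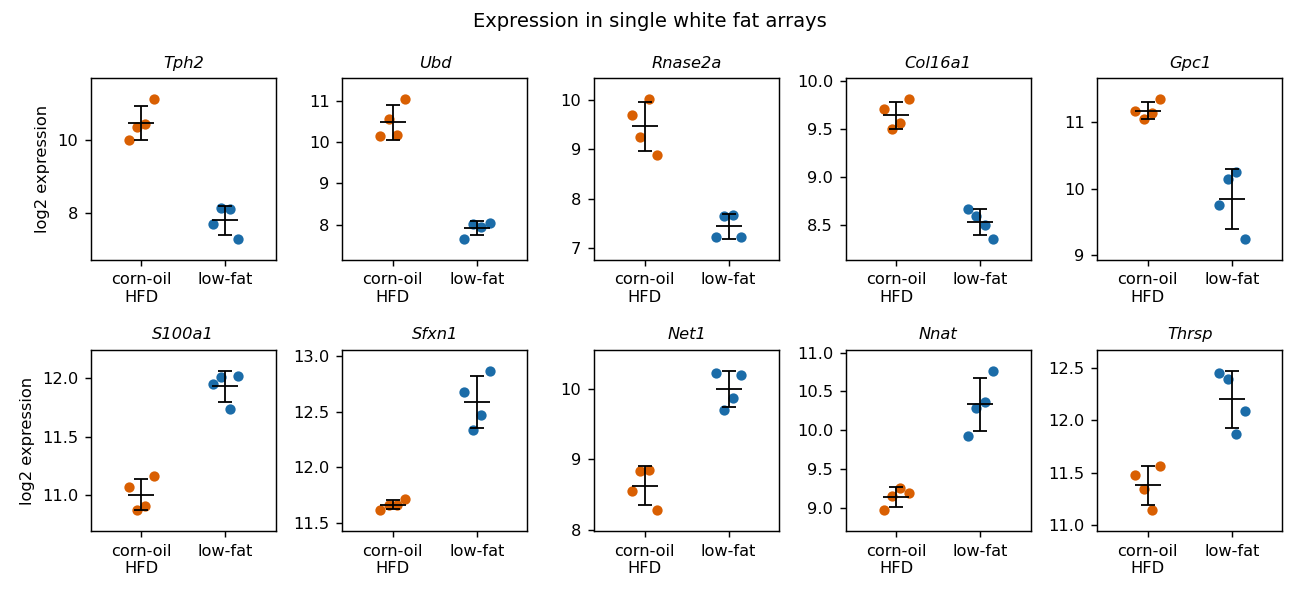
Log2 expression of 5 genes that rose (top row) and 5 that fell (bottom row) in white fat, one point per array, corn-oil HFD to the left of low-fat; the bar is the mean and the whiskers are the SD of 4 arrays. The vertical axes differ between genes and do not start at 0. In each of the 10 genes the 4 corn-oil arrays lie on one side of the 4 low-fat arrays.

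Of 17 genes of MHC class II presentation, 5 rose and 12 did not pass, with no falls, beside the 2.05% of all genes tested that rose. Their median difference was 0.43, against -0.002 over all genes tested. H2-DMa, which encodes a chain of the protein that loads peptides onto class II molecules, was at 9.62, 9.54, 9.66 and 9.87 in the corn-oil HFD arrays, against 8.95, 8.96, 8.98 and 8.98 in the low-fat arrays. The low-fat arrays were nearly level, every corn-oil array was above them, and the rise was 0.70 ± 0.08 (adjusted p = 0.00183). The genes of the partner chain rose with it. H2-DMb1 was at 9.37, 9.34, 9.31 and 9.89 in the corn-oil HFD arrays, against 8.55, 8.68, 8.70 and 8.54 in the low-fat arrays, a rise of 0.86 ± 0.12 (adjusted p = 0.00782). H2-DMb2 was at 9.19, 9.12, 9.25 and 9.45 in the corn-oil HFD arrays, against 8.33, 8.32, 8.50 and 8.24 in the low-fat arrays, a rise of 0.91 ± 0.09 (adjusted p = 0.00178). All 3 of these loading genes had separate groups and passed in each of the 8 fits without 1 array. H2-Eb1, a class II beta chain, was at 12.01, 11.78, 11.98 and 12.18 in the corn-oil HFD arrays, against 11.15, 11.32, 11.42 and 11.55 in the low-fat arrays. Its groups did not overlap but lay closer, and its rise of 0.63 ± 0.14 (adjusted p = 0.0395) was lost in every fit without 1 array. Cd74, the invariant chain that guides class II molecules through the cell, was at 12.99, 12.76, 12.89 and 12.85 in the corn-oil HFD arrays, against 12.05, 12.21, 12.58 and 12.40 in the low-fat arrays. Its rise of 0.56 ± 0.12 (adjusted p = 0.0324) was seen at all 3 of its probes, and the call held in 1 of the 8 fits. The class II chains H2-Aa at 0.57 ± 0.19 (adjusted p = 0.142) and H2-Ab1 at 0.48 ± 0.16 (adjusted p = 0.141), and the class II transactivator gene Ciita at 0.28 ± 0.11 (adjusted p = 0.231), did not pass. In all, 8 of the 17 genes had corn-oil arrays that were all above the low-fat arrays, beside 6.54% of all genes tested. In bulk tissue, more cells of a type and more RNA per cell cannot be told apart, here and in the groups below.

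Start regions of 3 of these genes are shown because class II genes are known to share a Y box, bound by the factor NF-Y, ahead of their start. The sequences are from RefSeq in build GRCm38.p6, from 250 bases before to 50 bases after the start, written in the direction of the gene. Capitals mark each match to GATTGG or, on the other strand, its reverse complement.
H2-DMb1 (chr17:34152941-34153240, strand +): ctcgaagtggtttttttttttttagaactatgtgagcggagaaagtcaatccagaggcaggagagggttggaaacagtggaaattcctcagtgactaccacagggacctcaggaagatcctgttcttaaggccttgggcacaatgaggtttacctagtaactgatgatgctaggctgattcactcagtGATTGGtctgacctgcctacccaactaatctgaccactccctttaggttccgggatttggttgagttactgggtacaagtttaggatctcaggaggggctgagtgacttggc
H2-DMb2 (chr17:34144999-34145298, strand +): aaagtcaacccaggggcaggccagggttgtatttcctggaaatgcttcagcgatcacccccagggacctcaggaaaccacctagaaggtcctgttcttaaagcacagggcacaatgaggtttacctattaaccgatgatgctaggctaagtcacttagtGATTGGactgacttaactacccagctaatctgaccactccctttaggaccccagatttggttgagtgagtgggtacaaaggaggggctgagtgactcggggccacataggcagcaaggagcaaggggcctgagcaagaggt
H2-Eb1 (chr17:34305617-34305916, strand +): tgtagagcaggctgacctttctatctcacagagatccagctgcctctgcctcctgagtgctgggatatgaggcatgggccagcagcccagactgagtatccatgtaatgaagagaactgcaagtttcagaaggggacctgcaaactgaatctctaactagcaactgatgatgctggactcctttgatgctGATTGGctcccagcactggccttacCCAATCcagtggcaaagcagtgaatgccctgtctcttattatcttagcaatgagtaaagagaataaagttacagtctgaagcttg
The match began 62 bases before the start in H2-DMb1 and 91 bases before it in H2-DMb2. H2-Eb1 had a match 60 bases before the start and a second one, on the other strand, 35 bases before it. Of the other genes that rose only H2-DMa was searched as well. It held a match 199 bases before 1 of its 2 annotated starts, and none in the window of the other. Over all 32851 start regions of this length, 16.1% held the motif on either strand. A match describes the letters only and is no evidence of binding.

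Other immune genes rose one by one, with most members of their lists not passing, beside the 2.05% of all genes tested that rose. Of 35 chemokine and receptor genes, Ccl8 and Ccl7 rose and 33 were not called, with no falls and a median difference of 0.05. Ccl8, a chemokine gene that draws monocytes, was at 9.26, 10.46, 9.92 and 10.74 in the corn-oil HFD arrays, against 7.65, 8.72, 8.54 and 8.18 in the low-fat arrays. Every corn-oil array was above the low-fat arrays, which themselves spread over 1 log2 unit, and the rise was 1.83 ± 0.35 (adjusted p = 0.0247). Ccl7, a related chemokine gene, rose by 1.25 ± 0.27 (adjusted p = 0.0373). Ccl8 passed in 3 and Ccl7 in 1 of the 8 fits without 1 array. Of 32 interferon-responsive genes, Ubd and Irf8 rose and 30 were not called, with a median difference of 0.01. Irf8, a transcription factor gene of myeloid cells, rose by 0.43 ± 0.09 (adjusted p = 0.0344) and passed in 1 of the 8 fits. Among 27 cytokine and inflammatory signalling genes, Tnfaip2, induced by tumour necrosis factor, rose by 0.37 ± 0.08 (adjusted p = 0.0373) at its brightest probe, and the other 26 were not called. Of 23 genes of lipopolysaccharide sensing and the acute phase, Lbp and Hp rose. Lbp, which encodes the lipopolysaccharide-binding protein, was at 10.36, 10.42, 10.76 and 11.004 in the corn-oil HFD arrays, against 9.37, 9.72, 9.61 and 8.57 in the low-fat arrays. Low-fat replicate 4 was the lowest by far, and the rise of 1.32 ± 0.27 (adjusted p = 0.0295) was called in 3 of the 8 fits. Hp, the haptoglobin gene, was at 14.05, 14.10, 13.75 and 14.24 in the corn-oil HFD arrays, against 12.99, 13.45, 13.54 and 12.92 in the low-fat arrays, a rise of 0.81 ± 0.16 (adjusted p = 0.0295) that was also called in 3. Its dimmer probes did not pass, at 1.03 ± 0.27 (adjusted p = 0.0733) and 0.82 ± 0.23 (adjusted p = 0.091). None of 21 genes of MHC class I processing (median -0.02) and none of 16 complement genes (median 0.20) passed. Of the complement genes C2 had the smallest p-value, with a difference of -1.18 ± 0.32 (adjusted p = 0.0799).

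Genes that mark immune cells gave a mixed picture. Of 10 eosinophil and neutrophil markers, Rnase2a and Ear3 rose and 8 were not called, beside the 2.05% of all genes tested that rose. The median difference of these markers was 0.02. Ear3, a ribonuclease gene of the same family as Rnase2a, was at 10.74, 10.75, 10.97 and 10.84 in the corn-oil HFD arrays, against 9.42, 9.79, 9.86 and 9.66 in the low-fat arrays. Its corn-oil arrays lay close together and above all low-fat arrays, and the rise was 1.14 ± 0.12 (adjusted p = 0.00183). As these genes have near-identical copies, the signal of one can include that of another, and other eosinophil markers of the list, Prg2 at 7.22 ± 0.04 on the corn-oil HFD and 7.20 ± 0.04 on the low-fat diet and Il5ra at 7.12 ± 0.04 and 7.16 ± 0.03 (SD), stayed near the floor. Clec4b1, a lectin gene of dendritic cells and macrophages, rose by 0.87 ± 0.14 (adjusted p = 0.0119), and Cd52, a surface glycoprotein gene of leukocytes, rose by 1.12 ± 0.20 (adjusted p = 0.0183). Cd209a rose by 0.23 ± 0.05 among 10 dendritic cell markers and 9 did not pass.

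None of 21 macrophage markers passed. Their median difference was 0.20, 15 were above 0 and 5 had corn-oil arrays that were all above the low-fat arrays, beside 6.54% of all genes tested. The mean of the list was 9.32 ± 0.13 on the corn-oil HFD and 9.10 ± 0.10 on the low-fat diet (SD, n = 4 each). Mpeg1, a pore-forming gene of macrophages, was at 9.34, 9.82, 9.73 and 10.04 in the corn-oil HFD arrays, against 8.90, 8.79, 9.12 and 8.98 in the low-fat arrays, with every corn-oil array above every low-fat array, yet the difference of 0.78 ± 0.23 (adjusted p = 0.106) did not pass. Adgre1, a macrophage surface receptor gene, differed by 0.60 ± 0.22 (adjusted p = 0.194). None of 15 markers of lipid-associated macrophages passed either, with a median difference of 0.30 and 8 non-overlapping genes, all higher on the corn-oil HFD, beside 6.54% of all genes tested. The mean of that list was 9.70 ± 0.20 on the corn-oil HFD and 9.16 ± 0.05 on the low-fat diet (SD). Gpnmb, a lysosomal glycoprotein gene of such cells, was at 9.97, 12.04, 10.74 and 11.31 in the corn-oil HFD arrays, against 8.58, 8.86, 9.13 and 9.14 in the low-fat arrays. The corn-oil arrays were all higher but spread over more than 2 log2 units, and the difference was 2.09 ± 0.76 (adjusted p = 0.191). Lgals3, which encodes galectin-3, differed by 1.12 ± 0.28 (adjusted p = 0.0644), and the lipid droplet coat gene Plin2 by 0.63 ± 0.15 (adjusted p = 0.0549). With the macrophage list mean as a covariate, 405 genes were called, 241 of them among the 517. As that mean also differed between the diets, the fit cannot fully separate it from diet. In that fit Ubd differed by 2.31 (adjusted p = 0.00403), H2-DMa by 0.68 (adjusted p = 0.0101), Ccl8 by 1.44 (adjusted p = 0.0781) and Cd74 by 0.52 (adjusted p = 0.094).

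**Figure D2:**
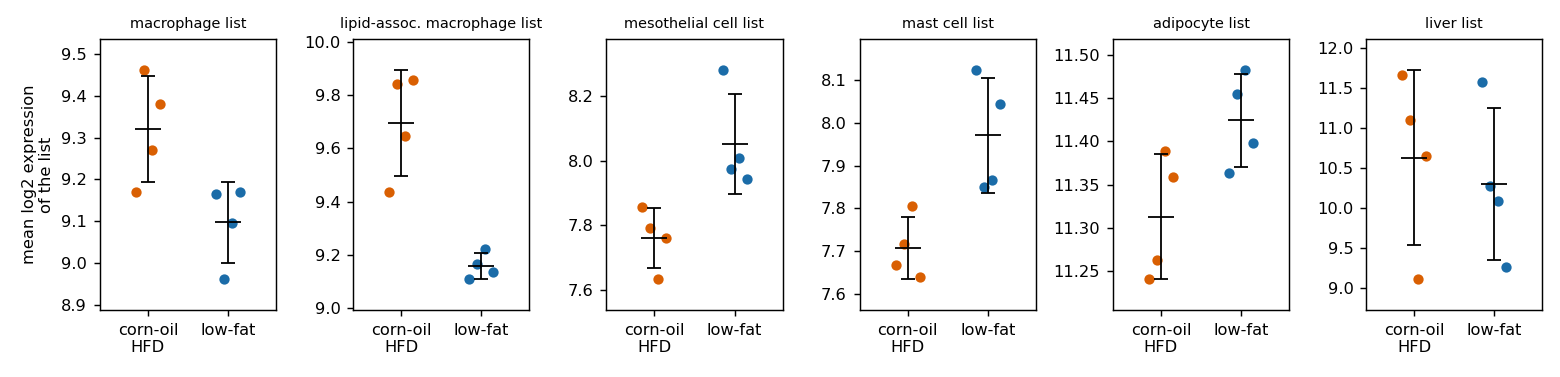
Mean log2 expression of 6 marker lists in white fat, one point per array, corn-oil HFD to the left of low-fat, with the mean and SD of 4 arrays; the vertical axes differ and do not start at 0. The lipid-associated macrophage list is higher and the mesothelial and mast cell lists are lower in all corn-oil arrays, while the liver list spreads over more than 2 log2 units within each diet.

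Of 29 lysosomal genes, 22 had positive differences, 2 rose and 27 did not pass, with a median of 0.14. Over all 13349 genes tested 6479 differences were above 0 and 2.05% of genes rose. Glb1, which encodes the lysosomal beta-galactosidase, rose by 0.52 ± 0.08 (adjusted p = 0.0114) and passed in each of the 8 fits without 1 array. Ctsa, the cathepsin A gene, rose by 0.57 ± 0.12 (adjusted p = 0.0314) and passed in 1. Each has dimmer probes near the floor that did not pass.

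Of 39 cell cycle genes, 9 rose and 30 did not pass, with no falls, beside the 2.05% of all genes tested that rose. Of the 39 differences 35 were above 0, and the median difference was 0.14. The differences were small on this scale, as most of these genes lay near the floor. Mcm5, a subunit of the replicative helicase, was at 7.84, 8.05, 8.09 and 8.12 in the corn-oil HFD arrays, against 7.62, 7.49, 7.67 and 7.48 in the low-fat arrays. The groups did not overlap, and the rise was 0.46 ± 0.08 (adjusted p = 0.016). Tk1, which encodes the thymidine kinase of dividing cells, was at 7.52, 7.66, 7.55 and 7.66 in the corn-oil HFD arrays, against 7.25, 7.21, 7.30 and 7.21 in the low-fat arrays. Its rise of 0.36 ± 0.04 (adjusted p = 0.00284) passed in each of the 8 fits without 1 array, although a dimmer probe at the floor did not pass. Cdk1, the kinase gene that starts mitosis, was at 7.43, 7.46, 7.69 and 7.54 in the corn-oil HFD arrays, against 7.29, 7.22, 7.34 and 7.18 in the low-fat arrays, a rise of 0.28 ± 0.06 (adjusted p = 0.0358) that passed in 2 of the 8 fits. Uhrf1, a DNA methylation maintenance gene, rose by 0.46 ± 0.10, the mitotic kinesin gene Kif22 by 0.29 ± 0.05 and Birc5, which encodes survivin, by 0.26 ± 0.05. The remaining 3 were Bub1b, Cdc20 and Cdca8, named here because they complete the count. Further probes of these 3 genes did not pass. They lay near the floor, at differences of 0.060 for Bub1b, 0.097 for Cdca8 and 0.055, -0.024 and 0.066 for Cdc20. Over the fits without 1 array, between 3 and 11 cell cycle genes were called higher.

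Promoters of cell cycle genes often hold a cell cycle homology region (CHR), through which the DREAM complex represses them outside division, and start regions of 3 of the 9 genes are therefore shown. Capitals mark each match to TTTGAA or its reverse complement.
Cdk1 (chr10:69352863-69353162, strand -): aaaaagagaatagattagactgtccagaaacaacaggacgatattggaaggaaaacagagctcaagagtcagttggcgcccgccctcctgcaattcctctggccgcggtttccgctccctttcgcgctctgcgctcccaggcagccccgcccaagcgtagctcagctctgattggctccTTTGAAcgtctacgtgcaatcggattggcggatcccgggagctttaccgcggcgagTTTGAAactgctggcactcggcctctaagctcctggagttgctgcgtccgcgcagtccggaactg
Cdc20 (chr4:118437294-118437593, strand -): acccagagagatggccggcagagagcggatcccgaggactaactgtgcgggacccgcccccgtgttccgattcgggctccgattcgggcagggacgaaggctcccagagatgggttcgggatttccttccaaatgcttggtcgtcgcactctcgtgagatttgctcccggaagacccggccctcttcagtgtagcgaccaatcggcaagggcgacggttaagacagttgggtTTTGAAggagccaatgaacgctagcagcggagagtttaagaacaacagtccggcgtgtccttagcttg
Kif22 (chr7:127042371-127042670, strand -): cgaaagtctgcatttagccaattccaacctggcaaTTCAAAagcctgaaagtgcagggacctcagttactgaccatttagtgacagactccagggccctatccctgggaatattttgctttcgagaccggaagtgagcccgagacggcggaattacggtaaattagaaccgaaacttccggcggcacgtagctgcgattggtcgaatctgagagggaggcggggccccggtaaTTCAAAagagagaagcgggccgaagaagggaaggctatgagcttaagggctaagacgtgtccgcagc
Cdk1 held a match 71 bases and another 15 bases before the start. Cdc20 held 1 match, 18 bases before the start. Kif22 held a match 215 bases and another 17 bases before the start, both on the other strand. Bub1b had a match 40 bases and Cdca8 a match 13 bases after the start. In all, 5 of the 9 genes held the motif within the window, whereas 17.9% of all start regions did. These matches are a description of letters, and the 4 genes without one have none in this window only.

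Matrix genes rose in part. Of 19 collagen genes 17 had positive differences, 2 rose and none fell, and the median difference was 0.15. Over all 13349 genes tested 6479 differences were above 0, 2.05% of genes rose and 1.82% fell. Col16a1, a collagen chain that links to fibrils, was at 9.71, 9.50, 9.56 and 9.81 in the corn-oil HFD arrays, against 8.66, 8.59, 8.49 and 8.35 in the low-fat arrays. All corn-oil arrays were far above the low-fat arrays, and the rise was 1.12 ± 0.10 (adjusted p = 0.00131). Col5a1, a chain of the collagen that sets fibril diameter, was at 11.54, 11.68, 11.56 and 11.52 in the corn-oil HFD arrays, against 10.96, 11.11, 11.48 and 11.05 in the low-fat arrays. Low-fat replicate 3 came close to the corn-oil arrays, and the rise of 0.42 ± 0.09 (adjusted p = 0.037) passed in 1 of the 8 fits without 1 array. The collagen genes Col1a1 at 0.23 ± 0.09 (adjusted p = 0.222) and Col3a1 at 0.15 ± 0.15 (adjusted p = 0.712) did not pass. Of 30 genes of matrix proteases, inhibitors and crosslinkers, 3 rose and none fell, with a median difference of 0.04. Pcolce2, which encodes an enhancer of procollagen trimming, was at 10.06, 10.20, 10.26 and 10.22 in the corn-oil HFD arrays, against 8.96, 9.28, 9.21 and 9.28 in the low-fat arrays, a rise of 1.003 ± 0.12 (adjusted p = 0.00284). Serpinh1, the collagen chaperone gene, rose by 0.57 ± 0.10 (adjusted p = 0.0154). Both passed in each of the 8 fits, although a dimmer Serpinh1 probe did not pass at 0.34 ± 0.12 (adjusted p = 0.182). Timp1, which encodes an inhibitor of matrix metalloproteinases, was at 7.78, 8.75, 8.07 and 8.34 in the corn-oil HFD arrays, against 7.31, 7.47, 7.60 and 7.31 in the low-fat arrays. The corn-oil arrays spread widely, and the rise of 0.81 ± 0.18 (adjusted p = 0.0442) passed in 1 of the 8. Gpc1, a heparan sulfate proteoglycan gene, was at 11.17, 11.05, 11.13 and 11.34 in the corn-oil HFD arrays, against 9.75, 10.14, 10.25 and 9.24 in the low-fat arrays. The corn-oil arrays were nearly level, low-fat replicate 4 was the lowest, and the rise was 1.33 ± 0.19 (adjusted p = 0.0086), the only one past the threshold among 32 glycoprotein and proteoglycan genes. Ccn5, a secreted gene induced by Wnt signalling, rose by 0.64 ± 0.10 (adjusted p = 0.0124), and Sfrp5, a secreted Wnt antagonist gene, by 0.81 ± 0.17 (adjusted p = 0.0344), while 33 of 35 Wnt pathway genes did not pass.

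Genes that turn fatty acids into signals rose in a small number. Of 25 eicosanoid and epoxide genes, 3 rose, beside the 2.05% of all genes tested that rose, none fell and the median difference was -0.002. Ltc4s, the leukotriene C4 synthase gene, was at 10.88, 10.75, 10.63 and 10.75 in the corn-oil HFD arrays, against 10.17, 10.005, 9.91 and 10.15 in the low-fat arrays. The groups were well apart, and the rise of 0.69 ± 0.11 (adjusted p = 0.0125) passed in each of the 8 fits without 1 array. Ephx1, an epoxide hydrolase gene, rose by 0.68 ± 0.12 (adjusted p = 0.0194), and Pla2g2e, which encodes a secreted phospholipase, by 0.54 ± 0.10 (adjusted p = 0.0234). Of 20 cholesterol synthesis genes and SREBP targets, 18 had positive differences, 10 had corn-oil arrays all above the low-fat arrays (6.54% of all genes tested) and 2 rose (2.05% of all genes tested), with a median of 0.16. Hsd17b7, an enzyme late in the pathway, was at 9.35, 9.004, 9.10 and 9.07 in the corn-oil HFD arrays, against 8.62, 8.71, 8.54 and 8.26 in the low-fat arrays, a rise of 0.60 ± 0.10 (adjusted p = 0.0168) that held in all 8 fits. Cyp51, the lanosterol demethylase gene, rose by 0.46 ± 0.11 (adjusted p = 0.0485) and held in none. Pltp, the phospholipid transfer protein gene, rose by 0.27 ± 0.05 as 1 of 15 genes of cholesterol efflux.

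Storage genes moved in both directions. Of 20 lipid droplet and lipase genes, Hilpda rose and Ces1f and Ces1d fell, beside 2.05% of all genes tested that rose and 1.82% that fell. Hilpda, which encodes a droplet protein that inhibits the main triglyceride lipase, was at 9.85, 9.47, 9.64 and 9.48 in the corn-oil HFD arrays, against 8.66, 9.13, 8.75 and 8.41 in the low-fat arrays. Low-fat replicate 2 came nearest to the corn-oil arrays, and the rise of 0.88 ± 0.18 (adjusted p = 0.0295) held in 1 of the 8 fits. Acsl3, a gene for fatty acid activation at droplets, rose by 0.38 ± 0.07 (adjusted p = 0.0211), while the other 15 triglyceride synthesis genes did not pass. Ces1d, a carboxylesterase gene with triglyceride hydrolase activity in fat cells, was at 13.89, 13.39, 13.60 and 13.62 in the corn-oil HFD arrays, against 14.21, 14.50, 14.11 and 14.47 in the low-fat arrays. Its fall of 0.70 ± 0.11 (adjusted p = 0.0121) held in each of the 8 fits, although its low-fat arrays lay near the top of the scale. Ces1f, a near copy in the same family, was at 9.995, 9.83, 9.50 and 10.13 in the corn-oil HFD arrays, against 11.45, 10.62, 11.03 and 12.15 in the low-fat arrays. Low-fat replicate 4 was the highest, and the fall of 1.45 ± 0.30 (adjusted p = 0.0332) held in 1 of the 8. Of 17 genes of fatty acid synthesis only Thrsp passed. Thrsp, a regulator of fatty acid synthesis in liver and fat, was at 11.47, 11.34, 11.14 and 11.56 in the corn-oil HFD arrays, against 12.45, 12.39, 11.87 and 12.09 in the low-fat arrays, and fell by 0.82 ± 0.14 (adjusted p = 0.015). The synthase gene Fasn at -0.17 ± 0.22 (adjusted p = 0.794) and the desaturase gene Scd1 at 0.20 ± 0.12 (adjusted p = 0.503) did not pass. Pck1, the gene of an enzyme on the route from pyruvate carbon to glycerol phosphate, was at 7.83, 8.04, 8.14 and 8.19 in the corn-oil HFD arrays, against 8.75, 8.70, 8.85 and 9.25 in the low-fat arrays. Every corn-oil array was below every low-fat array, and the fall was 0.84 ± 0.15 (adjusted p = 0.0199), while its other probe did not pass at -0.80 ± 0.19 (adjusted p = 0.0525). Pdk1, a kinase gene that slows pyruvate oxidation, fell by 0.29 ± 0.06 in the same list of 10. In the pentose phosphate pathway, Tkt, the transketolase gene, fell by 0.77 ± 0.16 (adjusted p = 0.0295) and the epimerase gene Rpe by 0.44 ± 0.06 (adjusted p = 0.00943). Pfkp, a phosphofructokinase gene of glycolysis, rose by 0.61 ± 0.13 (adjusted p = 0.0381), while a dimmer probe did not pass at 0.14 ± 0.04 (adjusted p = 0.126).

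Of 21 genes that break down branched-chain amino acids, 5 fell and 16 did not pass, with no rises, beside the 1.82% of all genes tested that fell and a median of -0.11 over the adipocyte markers. In this list 9 genes had all corn-oil arrays below the low-fat arrays, beside 5.86% of all genes tested, and the median difference was -0.30. Ivd, which oxidises a leucine intermediate, was at 10.45, 10.45, 10.34 and 10.36 in the corn-oil HFD arrays, against 11.14, 10.94, 11.09 and 11.38 in the low-fat arrays. The corn-oil arrays were nearly level, the low-fat arrays all lay higher, and the fall was 0.74 ± 0.10 (adjusted p = 0.00579). Bckdha, a subunit of the dehydrogenase complex that commits the amino acids to breakdown, was at 10.38, 9.98, 10.20 and 10.19 in the corn-oil HFD arrays, against 10.60, 10.74, 10.55 and 10.81 in the low-fat arrays, and fell by 0.48 ± 0.08 (adjusted p = 0.0143). Both held in each of the 8 fits without 1 array. Bcat2, the transaminase of the opening step, was at 8.81, 8.90, 9.13 and 8.95 in the corn-oil HFD arrays, against 9.41, 9.66, 9.41 and 10.07 in the low-fat arrays. Low-fat replicate 4 was the highest, and the fall of 0.69 ± 0.15 (adjusted p = 0.0357) held in 1 of the 8. Pccb, a subunit of propionyl-CoA carboxylase, fell by 0.40 ± 0.09 (adjusted p = 0.0389) and held in 1, while its other probe did not pass at -0.31 ± 0.11 (adjusted p = 0.185). Aldh6a1, of valine breakdown, was at 10.84, 10.56, 11.44 and 10.72 in the corn-oil HFD arrays, against 11.71, 11.38, 11.61 and 12.08 in the low-fat arrays. Corn-oil replicate 3 overlapped the low-fat arrays, and the fall of 0.81 ± 0.18 (adjusted p = 0.0441) held in 2. Of 20 genes of amino acid transport and synthesis, 2 fell and none rose. Slc1a3, a glutamate transporter gene, was at 11.35, 11.40, 11.003 and 10.995 in the corn-oil HFD arrays, against 12.62, 11.94, 12.14 and 13.10 in the low-fat arrays, and fell by 1.26 ± 0.26 (adjusted p = 0.0324). Slc43a1, a transporter gene for large neutral amino acids, was at 7.74, 8.04, 7.97 and 7.83 in the corn-oil HFD arrays, against 9.26, 8.62, 8.75 and 9.32 in the low-fat arrays, and fell by 1.09 ± 0.18 (adjusted p = 0.013). Low-fat replicates 1 and 4 were the highest in both genes, and Slc43a1 held in each of the 8 fits while Slc1a3 held in 2. Csad, an enzyme gene on the route from cysteine to taurine, fell by 0.65 ± 0.10 (adjusted p = 0.0122), and Sfxn1, a mitochondrial serine carrier gene, by 0.93 ± 0.10 (adjusted p = 0.00183).

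**Figure D3:**
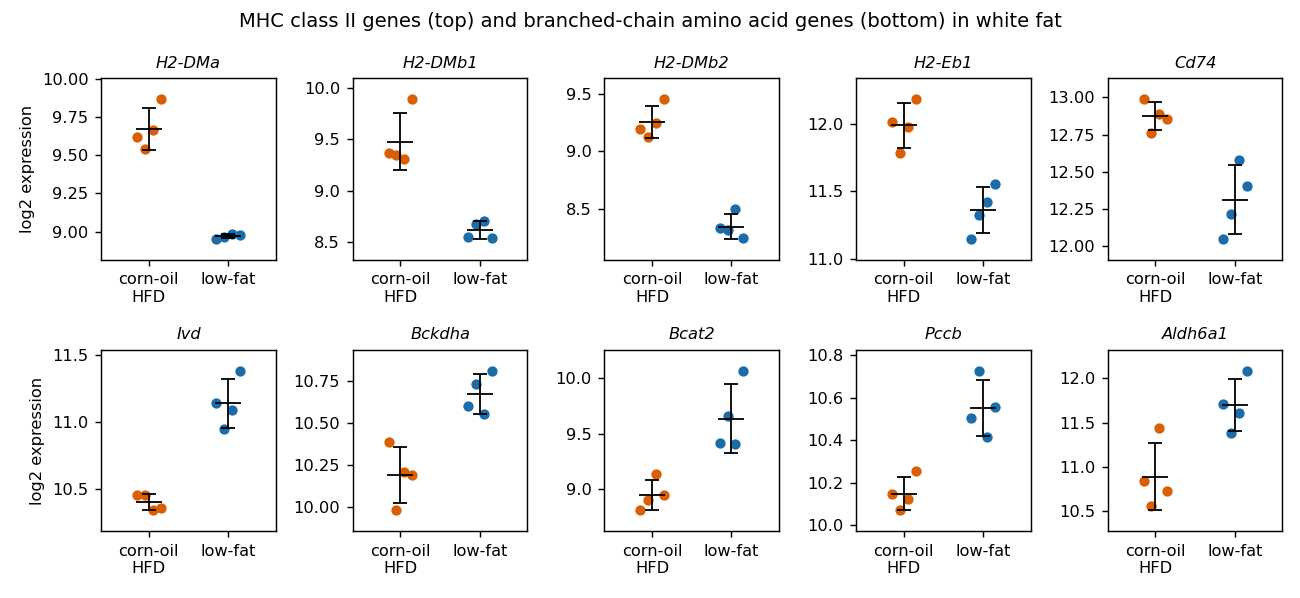
Log2 expression of the 5 MHC class II genes that rose (top row) and the 5 genes of branched-chain amino acid breakdown that fell (bottom row), one point per array, corn-oil HFD to the left of low-fat, with the mean and SD of 4 arrays. The vertical axes differ and do not start at 0. The groups overlap in Aldh6a1 alone of the 10 genes.

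In the lists of mitochondrial metabolism and peroxisomes each gene past the threshold fell, but these genes were few. Oxidative phosphorylation had 1 of 35 and fatty acid oxidation 1 of 23, beside the 1.82% of all genes tested that fell. The list medians stand beside a median of -0.11 over the adipocyte markers. Of 20 genes of the citric acid cycle and pyruvate dehydrogenase, 3 had positive differences, 3 fell and the median was -0.11. Pdha1, a subunit of pyruvate dehydrogenase, was at 11.02, 11.03, 11.22 and 11.02 in the corn-oil HFD arrays, against 11.73, 11.60, 11.37 and 11.63 in the low-fat arrays, and fell by 0.51 ± 0.12 (adjusted p = 0.046). Suclg2, a succinyl-CoA ligase gene, fell by 0.40 ± 0.07 (adjusted p = 0.0204), and Idh3g, of isocitrate dehydrogenase, by 0.28 ± 0.06 (adjusted p = 0.0358), while its other probe did not pass at -0.29 ± 0.14 (adjusted p = 0.343). Of the 8 fits without 1 array, Pdha1 held in 1, Suclg2 in 5 and Idh3g in 2, and each of these fits called between 0 and 2 genes of the list lower. Of 35 oxidative phosphorylation genes, 6 had positive differences, Uqcrc2 fell by 0.34 ± 0.08 (adjusted p = 0.0496) and 34 did not pass, with a median of -0.13. Uqcrc2, a subunit of complex III, held in none of the 8 fits without 1 array. Of 23 genes of mitochondrial fatty acid oxidation, Echs1, an enoyl-CoA hydratase gene, fell by 0.33 ± 0.07 (adjusted p = 0.0424) and the median was -0.09. Among 19 peroxisomal genes Scp2, Pex19 and Pex3 fell, and the median was -0.03. Scp2, which encodes a thiolase and a sterol carrier of peroxisomes, was at 13.03, 12.99, 12.99 and 12.87 in the corn-oil HFD arrays, against 13.70, 13.58, 13.58 and 13.43 in the low-fat arrays. The groups were well apart, and the fall was 0.60 ± 0.10 (adjusted p = 0.0122). Pex19, a chaperone gene of peroxisomal membrane proteins, fell by 0.33 ± 0.05 (adjusted p = 0.00816), and its docking partner Pex3 by 0.30 ± 0.07 (adjusted p = 0.0429). Scp2 and Pex19 held in each of the 8 fits, Pex3 in none. The other probes of Scp2 did not pass, at -0.33 ± 0.08 (adjusted p = 0.0639) and -0.14 ± 0.20 (adjusted p = 0.825), nor did that of Pex19 at -0.12 ± 0.10 (adjusted p = 0.61).

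**Figure D4:**
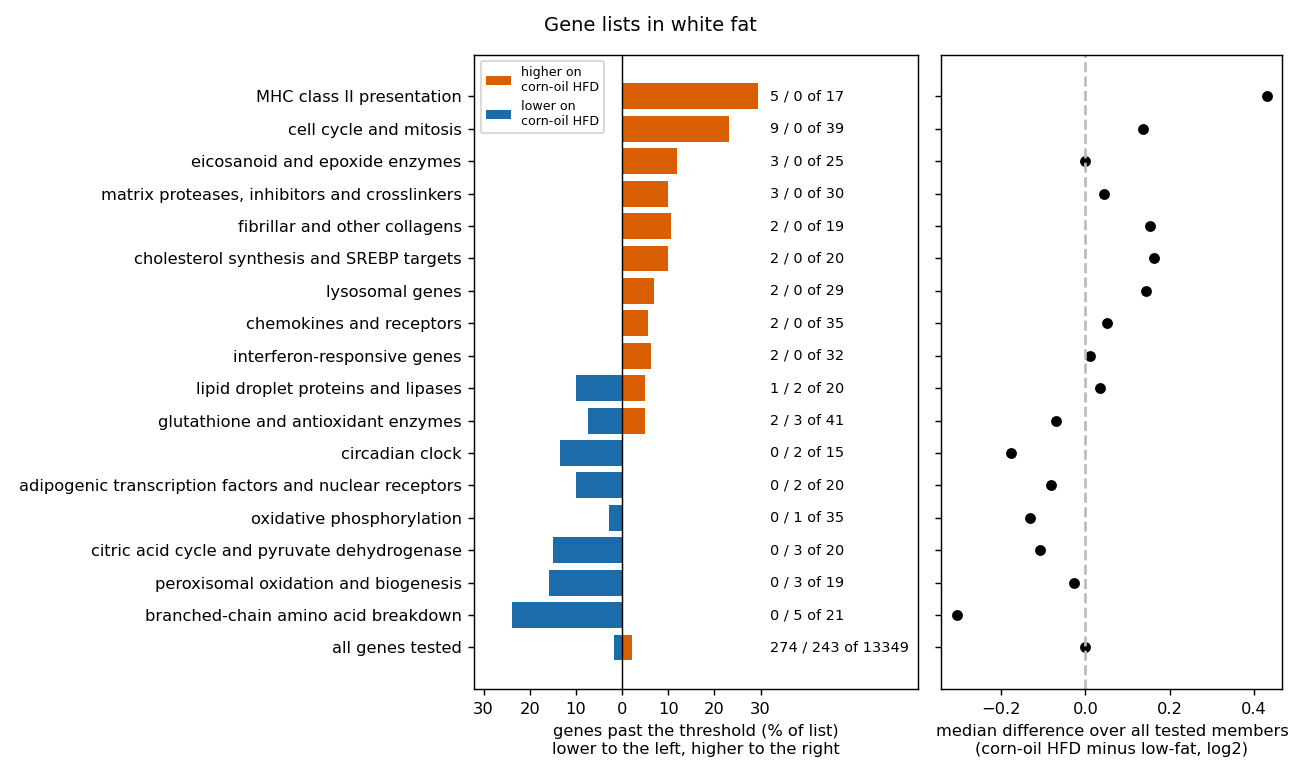
Left, the share of each gene list past the threshold in white fat, with genes higher on the corn-oil HFD to the right of 0 and genes lower to the left, and the counts of higher, lower and tested genes beside each bar. Right, the median difference of each list in log2 units, with the dashed line at the median of all genes tested. MHC class II and cell cycle genes have the longest bars to the right, branched-chain amino acid breakdown the longest to the left.

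Redox genes were split. Of 41 genes of glutathione and antioxidant enzymes, 2 rose and 3 fell, beside 2.05% of all genes tested that rose and 1.82% that fell. Gsta4, a glutathione transferase gene for lipid aldehydes, was at 8.10, 8.08, 8.13 and 8.17 in the corn-oil HFD arrays, against 8.79, 8.61, 8.51 and 8.81 in the low-fat arrays. The corn-oil arrays were nearly level and all below the low-fat arrays, and the fall was 0.56 ± 0.06 (adjusted p = 0.00264). Gpx3, the secreted glutathione peroxidase gene, was at 11.15, 10.94, 11.47 and 10.96 in the corn-oil HFD arrays, against 12.11, 12.26, 11.80 and 12.99 in the low-fat arrays. Low-fat replicate 4 was the highest, and the fall of 1.16 ± 0.26 (adjusted p = 0.0414) held in 1 of the 8 fits without 1 array. Mgst3, a microsomal glutathione transferase gene, fell by 0.57 ± 0.11 (adjusted p = 0.0228), while its other probe did not pass at -0.69 ± 0.21 (adjusted p = 0.117). Sod3, which encodes the extracellular superoxide dismutase, rose by 0.42 ± 0.07 (adjusted p = 0.0144) and held in all 8, and the mitochondrial gene Sod2 rose by 0.28 ± 0.06 (adjusted p = 0.0364) and held in 1.

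Among the other falls was S100a1, which encodes a calcium-binding protein. It was at 11.06, 10.88, 10.91 and 11.16 in the corn-oil HFD arrays, against 11.95, 12.01, 11.74 and 12.02 in the low-fat arrays. The groups were tight and apart, and the fall was 0.93 ± 0.09 (adjusted p = 0.00131). Net1, an exchange factor gene for RhoA, was at 8.55, 8.84, 8.85 and 8.27 in the corn-oil HFD arrays, against 10.22, 9.70, 9.87 and 10.20 in the low-fat arrays, and fell by 1.37 ± 0.22 (adjusted p = 0.0122) at both of its probes. Chst1, a sulfotransferase gene, fell by 0.96 ± 0.15 (adjusted p = 0.0122), and Adig, the adipogenin gene of fat cells, by 0.81 ± 0.11 (adjusted p = 0.0077). Ppp1r1a, which encodes an inhibitor of protein phosphatase 1, fell by 0.64 ± 0.09 (adjusted p = 0.00875). Each of these 5 held in the 8 fits. Vnn3, of the vanin family, fell by 0.97 ± 0.20, and Eci3, an enoyl-CoA isomerase gene, by 0.89 ± 0.16. Cebpa, a transcription factor gene of fat cell differentiation, was at 8.12 ± 0.08 on the corn-oil HFD and 8.60 ± 0.11 on the low-fat diet (SD, n = 4 each). All corn-oil arrays were below the low-fat arrays, and the fall of 0.48 ± 0.07 (adjusted p = 0.0115) held in all 8 fits. Ebf2, another such factor, fell by 0.36 ± 0.07 (adjusted p = 0.0258), and 18 of the 20 genes of that list did not pass. Acvr1c, a fat cell receptor gene for activin-like ligands, fell by 0.72 ± 0.13 (adjusted p = 0.0183). Insr, the insulin receptor gene, was at 9.87, 10.12, 10.07 and 9.78 in the corn-oil HFD arrays, against 10.38, 10.34, 10.28 and 10.72 in the low-fat arrays, and its fall of 0.47 ± 0.11 (adjusted p = 0.045) held in none of the 8 fits. In the circadian clock list 2 of 15 genes fell, beside the 1.82% of all genes tested that fell, and the median was -0.18. The repressor gene Nr1d1 fell by 0.49 ± 0.11 (adjusted p = 0.0482) and its opposing factor Rora by 0.33 ± 0.07 (adjusted p = 0.031). Nr1d1 held in none of the 8 fits and Rora in 1. The time of day of sampling is not given.

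Genes known to follow fat mass in mice did not move as 1 group. Of 16, 2 rose and 1 fell, beside 2.05% of all genes tested that rose and 1.82% that fell, and the median difference was 0.11. Lep, the leptin gene, was at 14.17, 14.29, 14.64 and 14.70 in the corn-oil HFD arrays, against 13.31, 14.36, 14.14 and 13.20 in the low-fat arrays. Low-fat replicate 2 lay among the corn-oil arrays, replicate 3 just below the lowest of them and replicates 1 and 4 the lowest, and the difference of 0.70 ± 0.28 (adjusted p = 0.233) did not pass. Mest, a gene tied to fat expansion, was at 11.17, 10.19, 11.44 and 11.22 in the corn-oil HFD arrays, against 9.27, 10.22, 10.34 and 8.42 in the low-fat arrays. It showed the same order, with low-fat replicates 1 and 4 the lowest, and a difference of 1.44 ± 0.50 (adjusted p = 0.166) that did not pass at its brightest probe. Of its dimmer probes 1 passed, at 1.18 ± 0.28 (adjusted p = 0.0491), and the other did not, at 1.61 ± 0.41 (adjusted p = 0.0662), and Mest is not counted among the 517. Gask1b, a secreted kinase-like gene, was at 10.23, 10.001, 10.47 and 10.26 in the corn-oil HFD arrays, against 9.22, 9.88, 9.37 and 9.14 in the low-fat arrays, a rise of 0.84 ± 0.16 (adjusted p = 0.0247) at its brightest probe. Nnat, the neuronatin gene, ran the other way at 8.96, 9.15, 9.26 and 9.19 in the corn-oil HFD arrays, against 9.93, 10.28, 10.37 and 10.76 in the low-fat arrays. It fell by 1.20 ± 0.19 (adjusted p = 0.0122), at all 3 of its probes, and held in each of the 8 fits.

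Low-fat replicates 1 and 4 were both below low-fat replicates 2 and 3 in 139 of the 274 genes that rose (50.7%) and in 15 of the 243 that fell (6.2%), against 20.5% of all genes tested. The opposite order held in 7 of the genes that rose (2.6%) and in 83 of the genes that fell (34.2%), against 17.2% of all genes tested. Without low-fat replicate 4 the fit called 173 genes and without low-fat replicate 1 it called 216, against 391 without low-fat replicate 2 and 356 without low-fat replicate 3. Without corn-oil HFD replicate 4 it called 220, and without replicates 1, 2 and 3 it called 274, 279 and 260. With the Lep value of each array as a covariate, 54 genes were called, 48 of them among the 517. What set the order of the low-fat arrays was not tested.

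Markers of other cell types and tissues moved in part with diet. The mesothelial list, of the cell layer that covers fat inside the abdomen, had a mean of 7.76 ± 0.09 on the corn-oil HFD and 8.05 ± 0.16 on the low-fat diet (SD, n = 4 each). Slpi and Igfbp6 fell among its 14 genes, beside the 1.82% of all genes tested that fell. Of the 14, 12 had negative differences, with a median of -0.09, while 6479 of all 13349 genes tested had positive ones. Slpi, a protease inhibitor gene, was at 10.69, 9.98, 10.43 and 9.49 in the corn-oil HFD arrays, against 12.68, 11.33, 11.16 and 11.25 in the low-fat arrays. Low-fat replicate 1 stood far above the rest, and the fall of 1.46 ± 0.34 (adjusted p = 0.046) held in none of the 8 fits without 1 array. Igfbp6, which encodes a binding protein of insulin-like growth factors, fell by 0.59 ± 0.12 (adjusted p = 0.0287). Upk3b, a defining mesothelial gene, was at 8.58, 8.92, 8.10 and 8.31 in the corn-oil HFD arrays, against 10.07, 9.31, 9.35 and 9.08 in the low-fat arrays, and did not pass at -0.97 ± 0.26 (adjusted p = 0.0829). With the mesothelial list mean as a covariate 124 genes were called, 74 of them among the 517. That mean was itself lower in every corn-oil array than in every low-fat array. The fit therefore cannot separate it from diet, and calls can be lost for that reason alone. In that fit Ubd differed by 2.63 (adjusted p = 0.0146), Tph2 by 2.73 (adjusted p = 0.0464), Ivd by -0.68 (adjusted p = 0.073) and S100a1 by -0.83 (adjusted p = 0.0268). The mast cell list had a mean of 7.71 ± 0.07 on the corn-oil HFD and 7.97 ± 0.13 on the low-fat diet. Of its 9 genes Mcpt4, a mast cell protease gene, fell by 0.53 ± 0.10 (adjusted p = 0.0276), and the carboxypeptidase gene Cpa3 did not pass at -0.67 ± 0.17 (adjusted p = 0.0705). The part of mast cells in the other results was not tested.

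Liver genes were present in every white fat array and varied within both diets, with a list mean of 10.63 ± 1.10 on the corn-oil HFD and 10.30 ± 0.96 on the low-fat diet (SD). None of 16 passed, although 15 had positive differences, beside 6479 of all 13349 genes tested, and the median difference was 0.37. With the list mean as a covariate 456 genes were called, 405 of them among the 517. In the pancreas list Amy2a5, an amylase gene, fell by 0.92 ± 0.16 (adjusted p = 0.0186) and Cela1, an elastase gene, rose by 0.98 ± 0.13 (adjusted p = 0.00582). The defining pancreas genes Ctrb1, Cpa1 and Cela2a were near the floor on both diets, at 7.13 ± 0.02, 7.10 ± 0.01 and 7.11 ± 0.02 on the corn-oil HFD and 7.14 ± 0.05, 7.15 ± 0.01 and 7.20 ± 0.19 on the low-fat diet. Among 11 skeletal muscle markers Pvalb rose by 0.29 ± 0.04 and Ryr1 by 0.15 ± 0.02, both from near the floor. Over all genes tested 2.05% rose. Ucp1, the uncoupling protein gene of brown fat, was at 7.11, 7.13, 7.18 and 9.38 in the corn-oil HFD arrays, against 8.02, 7.08, 7.09 and 7.21 in the low-fat arrays. Corn-oil replicate 4 and low-fat replicate 1 were raised, and none of 16 brown fat genes passed. Without the white fat arrays with the highest Ucp1, which were corn-oil HFD replicate 4 and EPA/DHA HFD replicate 2, 254 genes were called.

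The same diets were compared in brown fat. There limma called 0 of 13400 genes (0.0%) at an adjusted p below 0.05, while 1220 genes had an unadjusted p below 0.05. The 0 calls do not show that brown fat did not respond. Lep differed there by 2.43 ± 0.44 and did not pass (adjusted p = 0.185). Skeletal muscle markers had a median difference of 1.04 in brown fat. Of these, Pvalb was at 11.96, 11.78, 13.88 and 13.68 in the corn-oil HFD arrays, against 12.03, 10.53, 11.88 and 12.925 in the low-fat arrays. What muscle RNA added to the spread was not tested. Of the 274 genes that rose in white fat 251 were also tested in brown fat, where 165 differences had the same sign and the median was 0.04, against 0.39 in white fat. Of the 243 that fell 241 were tested in brown fat, where 125 differences had the same sign and the median was -0.01, against -0.36 in white fat. The difference between the tissues was itself tested, as white fat effect minus brown fat effect, and passed in 93 of 14262 genes (0.652%). The test takes all arrays as independent, and the labels do not say if the white and brown fat of a diet came from the same mice. It called 30 genes when arrays of the same diet and number were taken as pairs. Of these 93, 46 had risen and 21 had fallen in white fat. The test uses the same white fat arrays that gave those calls, so passing it is no independent support for them.

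Ubd had the smallest adjusted p in this test. In brown fat it was at 7.40, 7.45, 7.35 and 7.32 in the corn-oil HFD arrays, against 7.31, 7.14, 7.29 and 7.19 in the low-fat arrays, a difference of 0.14 ± 0.07. The white fat effect exceeded the brown fat effect by 2.41 ± 0.22 (adjusted p = 9.0e-06). Stambpl1 differed by -0.07 ± 0.07 in brown fat, and its effects were 0.96 ± 0.11 apart (adjusted p = 2.0e-04). Kcnj14, a potassium channel gene, was at 7.64, 7.74, 7.75 and 7.76 in the corn-oil HFD arrays, against 7.19, 7.36, 7.25 and 7.18 in the low-fat arrays in white fat, a rise of 0.48 ± 0.05 (adjusted p = 0.00194). The effects in the 2 tissues were 0.51 ± 0.06 apart (adjusted p = 2.2e-04). Septin9, a gene of the septin cytoskeleton, was at 8.89, 8.58, 8.80 and 8.93 in the corn-oil HFD arrays, against 8.19, 8.14, 8.19 and 7.95 in the low-fat arrays in white fat. In brown fat it was at 8.73, 8.96, 8.42 and 8.64 in the corn-oil HFD arrays, against 9.09, 9.67, 9.27 and 9.36 in the low-fat arrays. It rose by 0.69 ± 0.09 in white fat and differed by -0.66 ± 0.15 in brown fat, where the groups lay in the opposite order, and the effects were 1.35 ± 0.18 apart (adjusted p = 0.00111). For Tph2 the effects were 2.60 ± 0.34 apart (adjusted p = 8.2e-04), with brown fat values near the floor on both diets.

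Further genes of the groups above also passed the test of the tissue difference. For H2-DMb2 the white fat effect was higher by 0.84 ± 0.12 (adjusted p = 0.00202), and H2-DMa and H2-DMb1 passed as well. For Col16a1 it was higher by 0.96 ± 0.15 (adjusted p = 0.00402). For S100a1, lower in white fat on the corn-oil HFD, the effects were -0.86 ± 0.13 apart (adjusted p = 0.00196). For Gpc1 the effects lay closer together. In brown fat it was at 9.16, 9.04, 10.18 and 9.74 in the corn-oil HFD arrays, against 8.53, 8.43, 8.18 and 8.90 in the low-fat arrays, a difference of 1.02 ± 0.32. The effects were 0.31 ± 0.39 apart, which did not pass (adjusted p = 0.827). For Ivd, of leucine breakdown, the effects were -0.70 ± 0.16 apart, which did not pass (adjusted p = 0.0594).

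**Figure D5:**
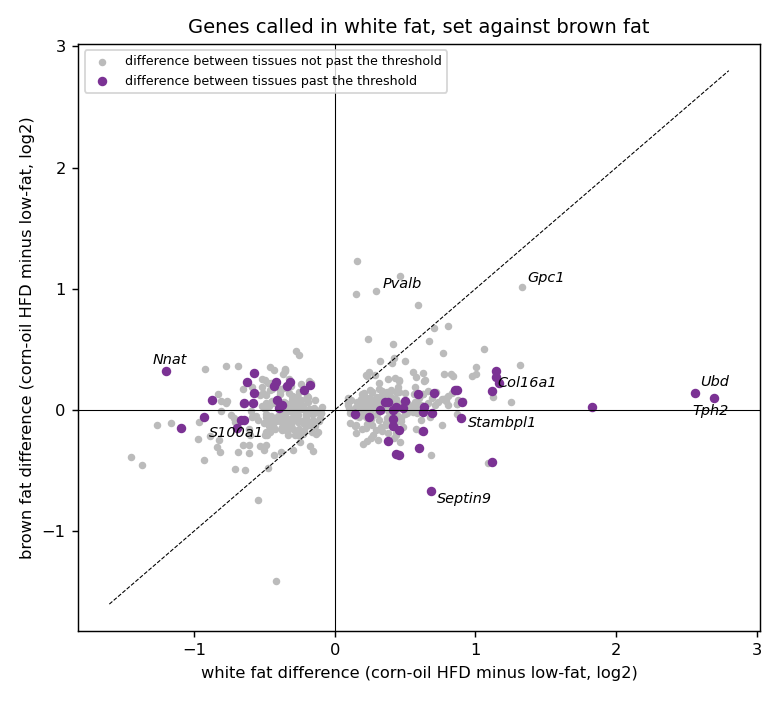
Corn-oil HFD minus low-fat differences in log2 units of the 492 genes called in white fat that were also tested in brown fat, white fat on the horizontal and brown fat on the vertical axis, one point per gene. Purple points passed the test of the difference between tissues, and the dashed line marks equal differences. Ubd and Tph2 lie far to the right near 0 in brown fat, Gpc1 lies near the dashed line, and Septin9 lies below 0 in brown fat.

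White fat of mice on the EPA/DHA HFD shared the low-fat arrays as its reference, so its values are given beside those above and no overlap is drawn. There 4 of 13349 genes passed against the low-fat diet (0.03%). On the EPA/DHA HFD Ubd was at 7.96 ± 0.28, Tph2 at 8.08 ± 0.63 and Rnase2a at 7.62 ± 0.44 (SD, n = 4 each). The low-fat means of these genes were 7.92 ± 0.18, 7.80 ± 0.40 and 7.44 ± 0.25, and the corn-oil means were all above them. Thrsp was at 12.61 ± 0.16 on the EPA/DHA HFD, 11.38 ± 0.18 on the corn-oil HFD and 12.20 ± 0.27 on the low-fat diet. H2-DMa was at 8.90 ± 0.14 on the EPA/DHA HFD, 9.67 ± 0.14 on the corn-oil HFD and 8.97 ± 0.02 on the low-fat diet. Net1 was at 9.05 ± 0.44 on the EPA/DHA HFD, between 8.63 ± 0.27 on the corn-oil HFD and 9.998 ± 0.25 on the low-fat diet. Rprml, a gene related to reprimo, was 1 of the 4 genes that passed on the EPA/DHA HFD. It was at 7.71, 7.61, 7.66 and 7.90 in the corn-oil HFD arrays, against 8.35, 8.40, 8.24 and 8.54 in the low-fat arrays, a fall of 0.66 ± 0.07 (adjusted p = 0.00178), and its EPA/DHA HFD mean was 7.81 ± 0.04. Over the genes that rose on the corn-oil HFD and were tested in brown fat, the median EPA/DHA HFD minus low-fat difference was 0.08, and over those that fell it was -0.09.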

How the data were processed

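The deposited table holds log2 expression for each probe, which the authors produced using lumi 2.18.0, per the submitters' processing notes. Once sorted, the values of the arrays were the same to within 0.0069, as after quantile normalisation, and a change of total signal cannot be seen. Values ran from 6.95 to 14.79, and detection calls were not used here. As these are arrays, their number limits the precision. Correlations between white fat arrays ran from 0.976 to 0.996, and none was a duplicate. Of 45281 probes, 34885 had 1 gene symbol, 18 several and 10378 stayed unnamed here. Symbols were updated through RefSeq names of GRCm38.p6.

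Diets were compared by limma 3.58.1 in R 4.3.3 over the 12 white fat arrays, with 1 mean per diet and a two-sided moderated test. Probes were kept when their mean lay above the 40th percentile (7.11), which left 27168. Benjamini-Hochberg adjustment ran over these probes, and the threshold was 0.05. Each gene is given by its brightest probe. Of the 109 called genes named in the text 49 had further kept probes, and in 20 of these all passed in the same direction. In 29 at least 1 did not pass, in 19 of them only probes with a mean under 7.5, near the floor, and none passed in the other direction. Brown fat was fitted alike, and the difference between tissues was an interaction over all 24 arrays and 29493 probes. The fit was run on 5 simulations with 200 changed probes each. It recovered 59.2% of changes of 0.25 log2 units and 96.8% of changes of 1, and 6.04% of its calls were false. Simulated probes were drawn independently, so shifts shared by many genes of an array were not covered. Adjusted p-values in the text come from limma. They set a difference against the spread within groups, pooled over all groups of the fit and moderated across probes. In white fat that spread includes the EPA/DHA HFD arrays. Lists are described by counts and medians, with no test of a list.

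The comparison, the 63 gene lists (1319 genes, 1209 with a named probe) and the alternatives were chosen with earlier results of these data known. Named are the 14 largest rises and falls among genes past the threshold with groups that do not overlap, at most 6 called members of a list, 2 members of lists with none, and the 15 largest rises and falls that held in every fit without 1 array. The 5 smallest adjusted p-values of the tissue difference and Lep, Adipoq, Ucp1, Fasn, Scd1 and Mest were added, and not all of these are described. Named after their values were seen were H2-Aa, H2-Ab1, Ciita, Adgre1, Gpnmb, Prg2, Il5ra, Col3a1, Upk3b, Cpa3, Ctrb1, Cpa1, Cela2a, Lpl, Pparg, Fabp4, Cd36, Bub1b, Cdc20 and Cdca8. The alternatives were filters, normalisations, priors, array weights, other sets of arrays, a replicate block and list means as covariates. The labels do not say if replicate numbers pair the arrays, and the main fit used no pairing. Deviations of arrays with the same number correlated at 0.546, -0.269, 0.296 and 0.071 between the diets, which does not settle the question. Sequences are from RefSeq. Genes with near-identical copies (Ces1, Ear and Amy families) are uncertain, as probes were not aligned here. The figures were drawn with matplotlib 3.10.9.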

Additional observations from a re-analysis of the deposited data

Results flagged for a closer look

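The corn-oil HFD effect differed between white and brown fat by the interaction test in 30 of the genes named above. The values are white fat effect minus brown fat effect in log2 units. It was higher in white fat for Tph2 (2.596), Ubd (2.414), Rnase2a (1.943), Ccl8 (1.804), Paqr9 (1.550), Septin9 (1.350), Slc5a7 (1.304) and Lipf (1.201). Smaller positive values were those of Col16a1 (0.961), Stambpl1 (0.961), Mylk (0.947), Hsd17b7 (0.916), Ear3 (0.872), H2-DMb2 (0.843), Nup210 (0.819), Ltc4s (0.720), Clec4b1 (0.703), H2-DMb1 (0.687), Ccn5 (0.613), H2-DMa (0.565), Kcnj14 (0.512), Sod3 (0.491) and Tk1 (0.289). It was lower in white fat for Nnat (-1.515), Slc43a1 (-0.944), Mgst3 (-0.878), S100a1 (-0.865), Rprml (-0.582), Ces1d (-0.548) and Uqcrc2 (-0.539). Rnase2a, Slc5a7, Lipf and Kcnj14 lay below the filter in brown fat, so their brown fat effect rests on values near the floor. Others passed the filter but also lay near the floor there, among them Tph2, Ubd, Ccl8, Ccn5 and Tk1. In brown fat Tph2 was at 7.18 on the corn-oil HFD and 7.08 on the low-fat diet, and Ubd at 7.38 and 7.23.

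A single array stood apart from the other 3 of its diet in 21 of 274 groups of 4 arrays, where chance flags about 1 in 20. Ucp1 was at 9.376 in corn-oil HFD replicate 4, against 7.106 to 7.179 in the others, and at 8.023 in low-fat replicate 1, against 7.085 to 7.206. Slpi was at 12.679 in low-fat replicate 1, against 11.159 to 11.331. Of the MHC class II genes, H2-DMb1 was at 9.886 in corn-oil HFD replicate 4, H2-Aa at 11.394 in replicate 2 and Ciita at 8.242 in replicate 2. Among metabolic genes Pdha1 was at 11.222 and Suclg2 at 8.808 in corn-oil HFD replicate 3, and Pdk1 was at 7.858 and Echs1 at 11.529 in replicate 4. Ccn5 was at 7.835 in corn-oil HFD replicate 2, and Cdca8 was at 7.314 and Kcnj14 at 7.638 in replicate 1. In the low-fat group Adipoq was at 14.137 in replicate 1, Tnfaip2 at 7.819 in replicate 2, and Sod3 at 8.458 and Cd36 at 7.688 in replicate 4. In low-fat replicate 3 Acsl3 was at 8.058, H2ac22 at 8.613, Cela2a at 7.485 and Lpl at 14.478.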

How the results depend on the processing

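The count of 517 genes was 254 without the 2 white fat arrays with the highest Ucp1, 124 with the mesothelial list mean as a covariate and 54 with the Lep value as a covariate. These settings, and the macrophage covariate (405), were chosen after seeing the data. The mesothelial, macrophage and Lep values differed on average between the diets, so fits with them as covariates cannot fully separate them from diet. With a replicate block it was 328. It ran from 173 to 391 over the fits without 1 array, which have fewer arrays, and from 360 to 638 over the other 11 alternatives. The tissue difference count of 93 was 59 with no filter, ran from 30 to 90 without 1 array, and was 88 with median centring and 83 with a trended and robust prior. It was 30 with same-numbered white and brown fat arrays as a replicate block, a setting added after seeing the data, though deviations of such arrays correlated over 0.1 in 0 of 12 pairs (-0.206 to 0.074). Of the 109 named genes past the threshold, 109 kept their call under renewed quantile normalisation, median centring and a filter at the 60th percentile, 71 under the replicate block, 56 without low-fat replicate 4, 27 with the mesothelial list mean as a covariate and 19 with the Lep covariate. Apart from the use of the dimmest probe, no alternative turned the direction of any of these 109 genes. Named genes that did not pass are not covered by this. That probe gave 0.015 for Maob, -0.013 for Ryr1 and -0.024 for Cdc20, all near the floor. Brown fat and the EPA/DHA HFD were run in the main setting only. Signal near the floor of about 7 limits cell cycle genes and other dim genes.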
